A study of Xenopus tropicalis with 11 samples.

Results

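The ChIP-seq peak lists of the repressor Gsc (goosecoid) and of the corepressor TLE were compared in early gastrula embryos of Xenopus tropicalis by the positions of their summits, the bases of highest signal within a peak interval. All intervals on assembled chromosomes were taken, with no other selection: 17683 Gsc intervals holding 19256 summits and 137474 TLE intervals holding 166085 summits. Together these are 155157 of the 863687 intervals in the 7 peak lists of the series. The remaining 32.8% of Gsc intervals and 11.7% of TLE intervals lay on unplaced scaffolds or the mitochondrial sequence and were left out. Both libraries came from whole Nigerian A embryos at stage 10.5, with chromatin of 2000 to 3000 fixed embryos for each sample. The Gsc library has an input control of its own, and TLE shares one with the coactivator p300. There is 1 library per antibody, so no value has a replicate error and no test between conditions was possible. Intervals in the text are exact 95% binomial limits that cover counting error only, and read depth is unknown from peak lists. Because embryos were taken whole, Gsc and TLE peaks that coincide may belong to different cells.

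Gsc is a homeodomain transcription factor made in the Spemann-Mangold organizer, the dorsal lip tissue that patterns the embryonic axis, where it acts mainly as a repressor. TLE proteins, the vertebrate counterparts of Drosophila Groucho, do not bind DNA by themselves and are brought to it by transcription factors. Gsc proteins carry a short engrailed-homology motif near the amino terminus that Groucho and TLE proteins bind. The distance between the summits of Gsc and TLE is therefore a measurement of how closely both proteins map to 1 place. No genome of the files' build was at hand, so no sequence is shown and the sites carry no gene annotation.

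The Gsc list was short and its intervals narrow. The median Gsc width was 76 bp (quartiles 56 and 111 bp), and 25.03% of the intervals had the smallest width of the list, 56 bp. TLE intervals had a median width of 170 bp (quartiles 110 and 270 bp), with a smallest width of 78 bp. The authors' fold enrichment, the ratio of signal to local background at a summit, had a median of 4.91 for Gsc and 6.04 for TLE. A −log10 q of at least 10 was reached by 10.1% of Gsc summits and 50.4% of TLE summits.

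Most Gsc summits had a TLE summit close by. Of the 19256 Gsc summits, 11545, or 59.96% (59.3 to 60.6), lay within 100 bp of a TLE summit. With the TLE list shifted along each chromosome by 1 to 20 Mb, the pooled share over 20 shifts was 2.52%, and single shifts gave 2.29 to 2.76%. The observed share was thus 23.8 times the shifted one. Shifts of only 5 to 100 kb, which keep the local density of peaks, gave 3.18% (2.74 to 3.74% over 20 shifts) and a ratio of 18.9. The median distance from a Gsc summit to the nearest TLE summit was 55 bp (quartiles 15.75 and 1124 bp), against 4110.9 bp on average after shifts of 1 to 20 Mb.

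The match was tight. Within 10 bp lay 18.1% of Gsc summits, against 0.275% after the long shifts, and within 25 bp 35.4%, against 0.657%. The ratio to the shifted list fell steadily with the window, from 65.7 at 10 bp to 36.6 at 50 bp, 12.3 at 250 bp, 4.10 at 1000 bp and 1.21 at 10000 bp. Widening the window from 250 to 1000 bp brought the observed share from 67.8% to 74.4%, so most of the Gsc summits that had a TLE summit within 1000 bp had it much nearer. Among the 11545 Gsc summits within 100 bp, the median distance was 20 bp. The nearest TLE summit lay at a higher coordinate in 5638 of them, at a lower one in 5727 and at the same base in 180, and the median signed offset was 0.

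**Figure D1:**
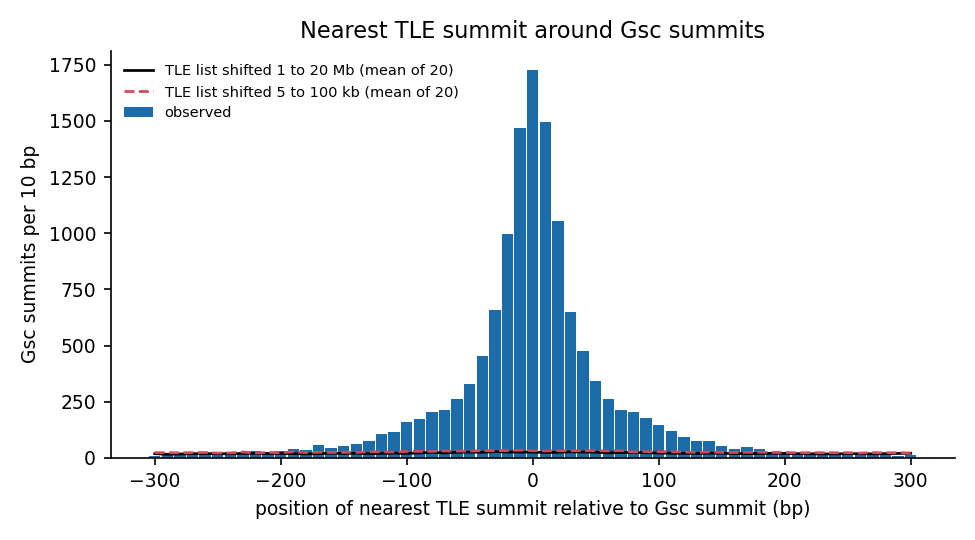
Number of Gsc summits (vertical axis) by the position of the nearest TLE summit relative to the Gsc summit, in bins of 10 bp (horizontal axis, bp); bars are the observed list, lines the mean over 20 long shifts (solid) and 20 local shifts (dashed) of the TLE list. The observed counts form a single symmetric peak centred on 0, whereas both shifted lists stay low and rise only slightly toward 0.

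The reverse view was very different, since the TLE list is much longer. Of the 166085 TLE summits, 11556, or 6.96% (6.84 to 7.08), lay within 100 bp of a Gsc summit, against a pooled 0.286% with the Gsc list shifted. That is 24.3 times the shifted share. Both directions count largely the same pairs of near summits, so this ratio is close to that from the Gsc side by construction. The median distance from a TLE summit to the nearest Gsc summit was 22786 bp (quartiles 6300 and 57108 bp), against 35551.2 bp on average after shifts. At 10000 bp the TLE share of 32.1% was still above the 19.5% of long shifts. With the TLE list shortened to its 17683 intervals of highest fold, as many as Gsc has, the share was 22.7% of Gsc summits and 17.8% of TLE summits.

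**Figure D2:**
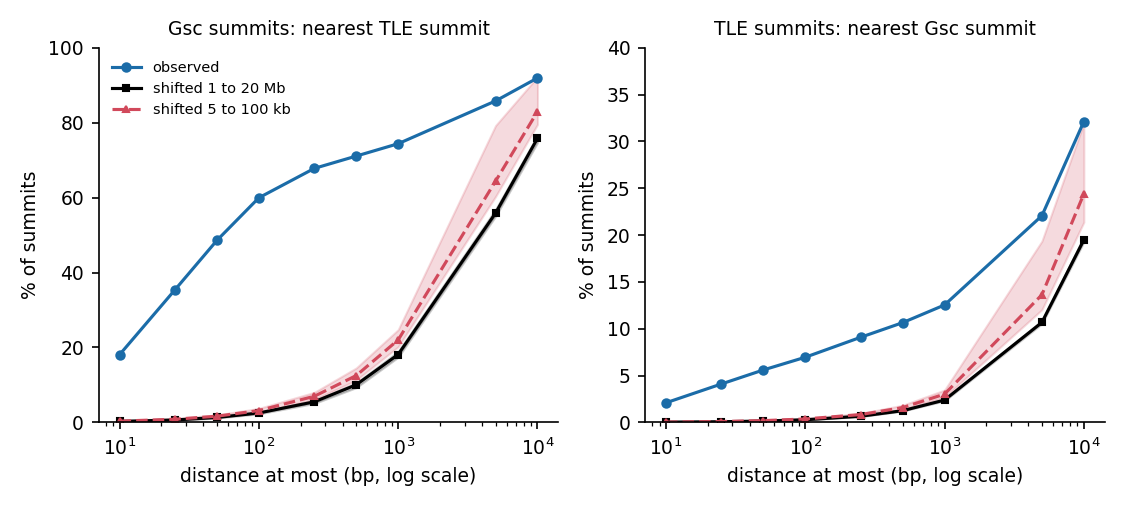
Share of Gsc summits with a TLE summit (left) and of TLE summits with a Gsc summit (right) within each distance (bp, log axis); circles are the observed lists, squares and triangles the means of 20 long and 20 local shifts, and bands the range over shifts. The left observed curve reaches 59.96% at 100 bp and the right one 6.96%, both far above the shifted lists at short distances. At 10000 bp the right one stands at 32.1% against a mean of 19.5% for long and 24.4% for local shifts. Local shifts of at most 10000 bp can leave paired summits within that distance by construction, which raises the local mean.

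By overlap of whole intervals, 11216 Gsc intervals, or 63.4% (62.7 to 64.1), shared at least 1 bp with a TLE interval, against a pooled 3.27% after shifts. These are called shared here, and the other 6467 unshared. From the TLE side 10333 intervals, or 7.52% (7.38 to 7.66), were shared, against 0.4% after shifts. In 83.8% of the 11295 overlapping pairs the Gsc interval lay wholly inside the TLE interval, and in 3.33% the TLE interval lay inside the Gsc interval. The strongest Gsc summit fell within the TLE interval in 96.5% of pairs. Most sites were single pairs: 814 TLE intervals met more than 1 Gsc interval (at most 6), and 74 Gsc intervals met more than 1 TLE interval (at most 3).

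The strongest summits of unshared Gsc intervals were at a median of 3661 bp from the nearest TLE summit. A TLE summit lay within 500 bp of 15.3% (14.5 to 16.2) of them, within 1000 bp of 24.8% (23.7 to 25.9) and within 10000 bp of 76.1% (75.1 to 77.2). After long shifts of the TLE list the mean shares were 9.92% within 500 bp (8.64 to 10.6% over shifts) and 17.85% within 1000 bp (16.6 to 18.6%). Within 10000 bp the shifted mean was 75.15% (72.65 to 76.5%), a range that holds the observed share. These intervals were chosen for not overlapping TLE, whereas a shifted TLE list may overlap them, so the comparison is uneven at short distances.

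Stronger Gsc intervals were shared more often. Intervals were ranked by their own fold and divided into 10 classes of equal size, with class 1 the lowest. In class 1 of Gsc fold, 48.3% (45.9 to 50.6) overlapped a TLE interval, and in class 10, at folds of 7.58 and above, 90.8% (89.3 to 92.1). Of the 100 Gsc intervals of highest fold 98 were shared, and of the 1000 highest 938. The summits were also nearer where Gsc was strong. In shared intervals the median distance from the strongest Gsc summit to the nearest TLE summit was 30 bp (quartiles 13.25 and 59 bp) in class 1 and 14 bp (6 and 32 bp) in class 10. The median width was 70 bp in class 1 and 149 bp in class 10, so intervals were also divided at the medians of both fold and width. Among intervals at or below the median width, 45.8% of those of low fold and 57.1% of those of high fold were shared. Among wider intervals these shares were 65.0% and 85.2%. Sharing was thus more frequent in the high-fold group of either width group, and in the wide group of either fold group. This division did not make width or fold equal. Median widths at low and high fold were 56 and 61 bp in the narrow groups and 100 and 129 bp in the wide ones. At high fold the median fold was 5.49 in the narrow group and 6.47 in the wide one.

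TLE intervals were shared more often with strength too, but most strong ones had no Gsc interval. The shared percentage was 3.14% (2.86 to 3.45) in class 1 of TLE fold and 24.7% (24.0 to 25.4) in class 10, at folds of 13.9 and above. Of the 1000 TLE intervals of highest fold, 372 met a Gsc interval and 628 did not. Even among the 100 highest, 47 had none. The distance between summits did not follow TLE fold as it followed Gsc fold: the median in shared intervals was 23.5 bp in class 1, 27 bp in class 8 and 20 bp in class 10.

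**Figure D3:**
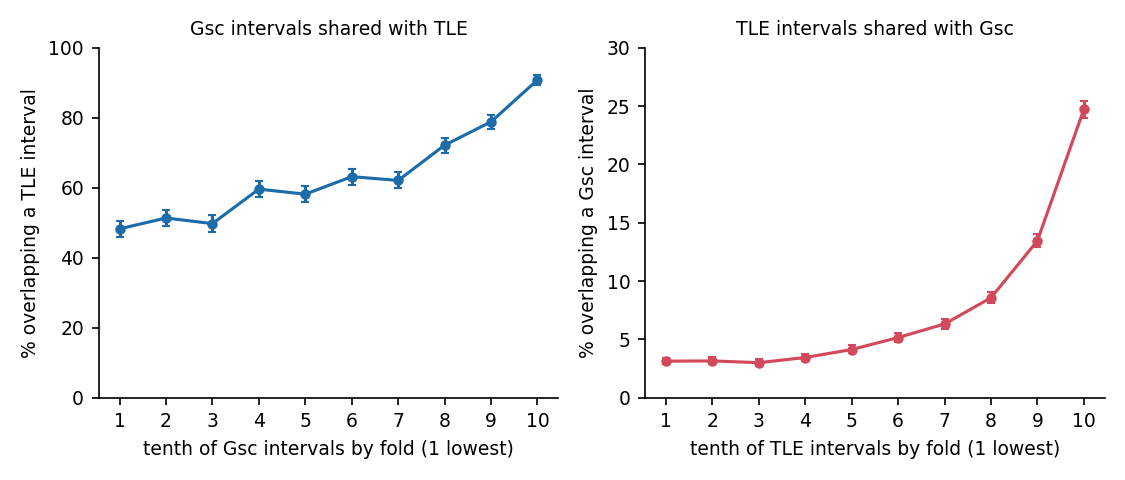
Share of Gsc intervals that overlap a TLE interval (left) and of TLE intervals that overlap a Gsc interval (right), by 10 equal classes of the intervals' own fold (1 lowest); bars are exact 95% binomial limits. Gsc sharing runs from 48.3% to 90.8% and TLE sharing from 3.14% to 24.7%.

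Where both proteins had a single summit, the summits could be placed against the shape of the intervals. In 5713 pairs, 1 Gsc interval with 1 summit met 1 TLE interval with 1 summit. The median distance between both summits was 20 bp (quartiles 9 and 43 bp), and 79.4% of the pairs were within 50 bp. The Gsc summit lay a median of 28.5 bp from the centre of the TLE interval, and 39 bp from the TLE summit when that summit was mirrored about its interval's centre. Gsc therefore lay nearer to the TLE summit than to the middle of the TLE interval. In pairs whose TLE summit was at least 50 bp off centre, the Gsc summit was on the same side of the centre as the TLE summit in 612 of 786, or 77.9% (74.8 to 80.7). Over all pairs with neither summit at the centre the share was 67.7% (66.5 to 69.0).

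Within the Gsc interval the summit added little to the place of the interval as a whole. Mirroring the Gsc summit about the centre of its own narrow interval changed the median distance to the TLE summit from 20 to 23 bp, and the centre of the Gsc interval lay at a median of 19.5 bp. The distance between summits grew with the width of the TLE interval, from a median of 14 bp below 150 bp to 28 bp at 350 bp and above. Narrow overlapping intervals limit this distance by construction. The median distance to the mirrored TLE summit grew more, from 18 to 73 bp. Summits were nearer to each other as both peaks gained strength. Where the lower of the fold percentiles of both summits was under 25, the median was 25 bp and 73.4% (71.3 to 75.4) of 1833 pairs were within 50 bp. Where it was 75 or more, the median was 14 bp and 89.1% (86.8 to 91.1) of 844 pairs were within 50 bp.

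Both lists repeat an interval once for each of its summits, so the number of sub-peaks can be read from them. A single summit was listed for 16534 Gsc intervals, and 1149, or 6.5%, had several, up to 11. Of the TLE intervals 23924, or 17.4%, had several, up to 15. Neighbouring summits of 1 interval were a median of 106 bp apart for Gsc and 134 bp for TLE.

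Shared intervals held more summits than unshared ones in both lists, and they were wider. Several summits were found in 1046 shared Gsc intervals, or 9.33% (8.79 to 9.88), and in 103 unshared ones, or 1.59% (1.302 to 1.93). For TLE the counts were 3869 shared intervals, or 37.4% (36.5 to 38.4), and 20055 unshared ones, or 15.8% (15.6 to 16.0). At least 3 summits were listed for 9.6% (9.04 to 10.2) of shared TLE intervals and 2.10% (2.02 to 2.18) of unshared ones. The median Gsc width was 87 bp (quartiles 63 and 131 bp) at shared and 61 bp (56 and 83 bp) at unshared intervals, and 15.8% against 41.0% had the smallest width. The median TLE width was 319 bp (209 and 434 bp) at shared and 163 bp (107 and 254 bp) at unshared intervals. Median folds were 5.12 against 4.54 for Gsc and 10.75 against 5.89 for TLE. With the TLE list shortened to the number of Gsc intervals, the difference in Gsc intervals with several summits turned from 7.73 to −1.38 percentage points. With both lists limited to a −log10 q of at least 10, the median width of shared Gsc intervals exceeded that of unshared ones by 7 bp, in place of 26 bp, with limits from −11.5 to 25.5 bp.

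At equal width the order of the TLE classes turned. Summit number depends on width: with intervals divided into 10 equal classes of width, no Gsc interval of the narrowest 7 classes had several summits, nor any TLE interval of the narrowest 2. Sharing also rose with width, from 39.8% of Gsc intervals in the narrowest class to 89.9% in the widest, and from 2.46% to 27.5% for TLE. Within these width classes, weighted by the shared intervals, the difference between shared and unshared TLE intervals was −4.60 percentage points, in place of 21.7 without regard to width. Within classes of 10 bp it was −7.24, and it was below 0 on each of the 10 chromosomes, from −9.33 on chromosome 2 to −1.65 on chromosome 10. Among TLE intervals from 300 to below 350 bp, 39.6% (37.1 to 42.1) of 1494 shared and 47.7% (46.6 to 48.7) of 9020 unshared ones had several summits. From 400 to below 500 bp the shares were 60.1% (57.5 to 62.6) and 73.0% (71.7 to 74.2).

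Shared TLE intervals of the same width also had a higher fold, with medians of 13.9 against 10.7 from 300 to below 350 bp. Within 5 classes of fold the difference in that range was −1.66 percentage points. In the ranges that start at 150, 200 and 250 bp it was −0.428, −2.83 and −1.81. From 350 to below 400 bp it was −4.84, from 400 to below 500 bp −9.43 and from 500 to below 700 bp −8.19. These differences have no limits. Summits of shared TLE intervals were spaced more widely. In intervals with 2 summits the median spacing was 146 bp (quartiles 116 and 203 bp) in 2877 shared intervals and 129 bp (108 and 165 bp) in 17383 unshared ones, at median widths of 399 and 317 bp.

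For Gsc the difference in summit number shrank at equal width, and its direction varied among narrow ranges of width. The difference was 2.32 percentage points within width classes and 0.691 within 10 bp, both without limits, in place of 7.73. From 150 to below 200 bp, 21.8% of 1009 shared and 23.6% of 165 unshared Gsc intervals had several summits. From 200 to below 250 bp the shares were 49.2% of 504 and 35.3% of 68, and shared intervals stayed higher in each range up to 400 bp. Only 16, 8 and 7 unshared intervals lay in the ranges that start at 250, 300 and 350 bp, so the order there rests on few intervals. From 400 to below 500 bp the shares were 98.8% and 100%, with only 3 unshared intervals. In the widest class, 56.9% (54.4 to 59.4) of shared and 40.8% (33.5 to 48.4) of unshared Gsc intervals had several summits, at median widths of 227 and 207 bp. In the class below, the shares were 9.35% and 9.24%.

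**Figure D4:**
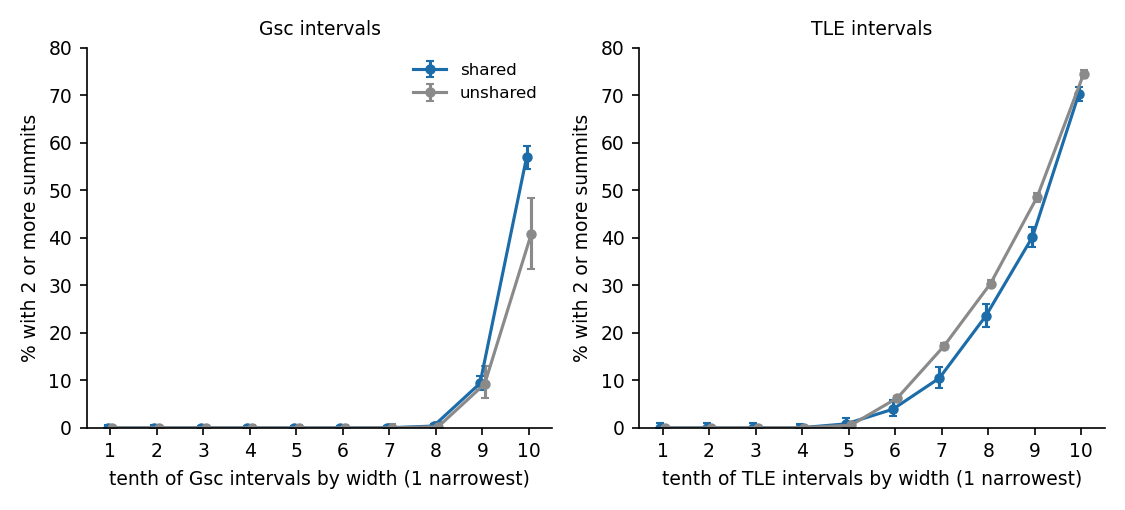
Share of intervals with 2 or more summits by 10 equal classes of interval width (1 narrowest), for Gsc (left) and TLE (right), at intervals shared between the lists and at unshared ones; bars are exact 95% binomial limits. In the widest Gsc class the shared intervals stand at 56.9% against 40.8%, while TLE intervals of class 8 stand at 23.6% shared against 30.4% unshared.

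Where TLE had a choice of summits, Gsc lay mostly at the stronger one. In 2300 pairs a Gsc interval with 1 summit met a TLE interval with 2, and the TLE summit of higher fold was the nearest in 1677, or 72.9% (71.0 to 74.7). With 3 TLE summits the strongest was nearest in 294 of 480 pairs, or 61.3% (56.7 to 65.6). An even split would give 50% with 2 summits and 33.3% with 3. In these groups the nearest TLE summit lay at a median of 19 and 18 bp and the next one at 137 and 141 bp. The nearest TLE summit was thus about as close as in intervals with a single TLE summit, with the next one much farther off. Taking the nearest of several summits shortens the distance by construction, so these medians do not show an equally close match. Seen from TLE, 12.8% (12.4 to 13.2) of the strongest summits of intervals with several lay within 100 bp of a Gsc summit. The share was 8.08% (7.77 to 8.41) of their weaker summits and 5.44% (5.31 to 5.57) of the only summits of an interval.

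Summit numbers of both lists often differed where Gsc had 2 summits. Of 610 Gsc intervals with 2 summits that met a single TLE interval, and that one no other Gsc interval, 372 had 1 TLE summit, 178 had 2 and 60 had more. Of 8605 such Gsc intervals with 1 summit, 5713, or 66.4%, had 1 TLE summit too. Where both had 2, each summit had its counterpart within 50 bp in 84 of 178 pairs, or 47.2% (39.7 to 54.8). In 109 of the 178, or 61.2% (53.7 to 68.4), the stronger summit was on the same side in both lists, where an even split would give 50%. Their median spacing was 109 bp for Gsc and 153.5 bp for TLE, and the spacings of both lists had a Spearman correlation of −0.0003. Where both had 3 summits, the strongest was the same in 3 of 13 pairs, and an even split would give 33.3%.

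The sites of highest rank were picked among pairs with summits within 100 bp, so they are examples and not evidence of closeness. On chromosome 7, a Gsc interval at 89101877 to 89101997 with a fold of 27.2 lay inside a TLE interval at 89101846 to 89102037 with a fold of 40.6, the highest of the TLE chromosomes, and their summits were 6 bp apart. On chromosome 4, the Gsc interval at 3946776 to 3947053 had 2 summits. The stronger of them, with a fold of 26.8, fell on the same base as the only TLE summit there, whose fold was 28.5. The remaining 3 of the 5 pairs with the highest ranks in both lists lay on chromosomes 2, 8 and 3, starting in the Gsc list at 8973586, 307087 and 30530213, and had summits 12, 3 and 9 bp apart. All 5 also met Otx2, Lim1, p300 and H3K4me1 intervals, and 4 met H3K27ac. Such overlaps were common among Gsc intervals with TLE and a −log10 q of at least 10. Of these, 99.4% met Otx2, 77.0% Lim1, 94.9% p300, 65.3% H3K4me1 and 49.97% H3K27ac. Of all Gsc intervals with TLE, 18.3% met every one of these lists. Coordinates are those of the deposited lists, counted from 1, on a build that is not named.

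The Gsc interval of highest fold with no TLE, at 70437334 to 70437434 on chromosome 2, had a fold of 17.0 and its nearest TLE summit 1316 bp away. The TLE interval of highest fold with no Gsc, at 104153304 to 104153532 on chromosome 1, had a fold of 37.25, and the nearest Gsc summit was 82933 bp away. Both met intervals of Otx2, Lim1, p300, H3K4me1 and H3K27ac. Every one of these lists was met by 12.4% of all Gsc intervals without TLE and 3.61% of all TLE intervals without Gsc. The interval with the most Gsc summits was 1314 bp wide, at 49136277 to 49137590 on chromosome 4. Its 11 summits had folds of 3.16 to 5.79, and 6 of them had a TLE summit within 25 bp. It met 2 TLE intervals, which also held 11 summits in all. The interval with the most TLE summits, at 29440770 to 29442993 on chromosome 5, held 15 with folds of 2.79 to 5.41. It met 2 Gsc intervals with 1 summit each, and 3 of its 15 summits were within 100 bp of Gsc.

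The other libraries of the series separated Gsc intervals with TLE from those without. Otx2, a transcription factor of the head organizer, met 96.7% (96.4 to 97.0) of the Gsc intervals with TLE and 35.1% (33.9 to 36.2) of those without. p300, an acetyltransferase and coactivator, met 82.4% (81.7 to 83.1) and 32.4% (31.3 to 33.6). H3K27ac, a mark of active enhancers and promoters, went the other way, at 25.2% (24.4 to 26.0) with TLE and 35.3% (34.1 to 36.5) without. None of the 5 other lists met 1.38% of the Gsc intervals with TLE and 42.0% (40.8 to 43.3) of those without. The order of Otx2, p300 and H3K27ac was the same on all 10 chromosomes and in all 10 classes of Gsc width. Classes 1 and 2 of width hold only intervals of 56 bp, divided by their order in the list, and class 3 also starts at 56 bp. The classes are thus not all separate widths. Lim1 (45.4% with TLE, 40.6% without) and the enhancer mark H3K4me1 (39.8% and 31.7%) were higher with TLE on 9 and 10 of the 10 chromosomes, but lower with TLE in 7 and 5 of the 10 width classes. Within classes of Gsc width their differences turned from 4.82 to −11.0 and from 8.03 to −5.60 percentage points.

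Seen from TLE, all 5 lists were met more often by intervals with Gsc than by those without. H3K27ac was met by 35.7% (34.8 to 36.7) of the TLE intervals with Gsc and 15.4% (15.2 to 15.6) of those without, the opposite order from that within the Gsc list. The shares were 48.9% (47.9 to 49.9) and 11.4% (11.2 to 11.5) for Lim1, and 52.9% (52.0 to 53.9) and 31.2% (30.9 to 31.5) for H3K4me1. They were 97.1% and 59.2% for Otx2, and 85.1% and 48.0% for p300. Within classes of TLE width the differences were 13.8 percentage points for H3K27ac, 30.2 for Lim1, 10.3 for H3K4me1, 20.4 for Otx2 and 18.3 for p300.

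The sizes of the differences among Gsc intervals depended on Gsc strength. Among Gsc intervals with a −log10 q of at least 10, 1523 met TLE and 124 did not. Otx2 was met by 99.4% (98.9 to 99.7) and 87.9% (80.8 to 93.1) of them, p300 by 94.9% (93.7 to 96.0) and 82.3% (74.4 to 88.5), and H3K27ac by 49.97% (47.4 to 52.5) and 66.1% (57.1 to 74.4). The Otx2 shares thus differed by far less among strong Gsc intervals than over the full list. With the TLE list held to the same threshold too, the p300 gap was 0.182 percentage points, with limits from −2.59 to 2.95.

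Split by both coregulators, the lowest and the highest shares of H3K27ac were found at Gsc intervals with 1 of them. Of the 17683 Gsc intervals, 9240 met TLE and p300, 1976 TLE without p300, 2096 p300 without TLE, and 4371 neither. H3K27ac was met by 28.6% (27.7 to 29.6), 9.06% (7.83 to 10.4), 69.1% (67.1 to 71.1) and 19.1% (18.0 to 20.3) of them. Lim1, a LIM homeodomain activator of the organizer, had the same order, with 53.4%, 7.64%, 78.6% and 22.3%. Otx2, at 98.3%, 89.0%, 70.8% and 17.9%, was frequent with either coregulator, more so with TLE alone than with p300 alone, and rare with neither. The median Gsc widths were 91, 73, 77 and 56 bp and the median folds 5.21, 4.86, 4.88 and 4.42, so that the groups with TLE alone and p300 alone were close in both. Among Gsc intervals that met Otx2, H3K27ac was met by 25.02% (24.2 to 25.8) of the 10846 with TLE and by 62.6% (60.6 to 64.6) of the 2267 without. Among those without Otx2 the order was the opposite, at 30.3% (25.6 to 35.2) of the 370 with TLE and 20.6% (19.4 to 21.8) of the 4200 without.

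**Figure D5:**
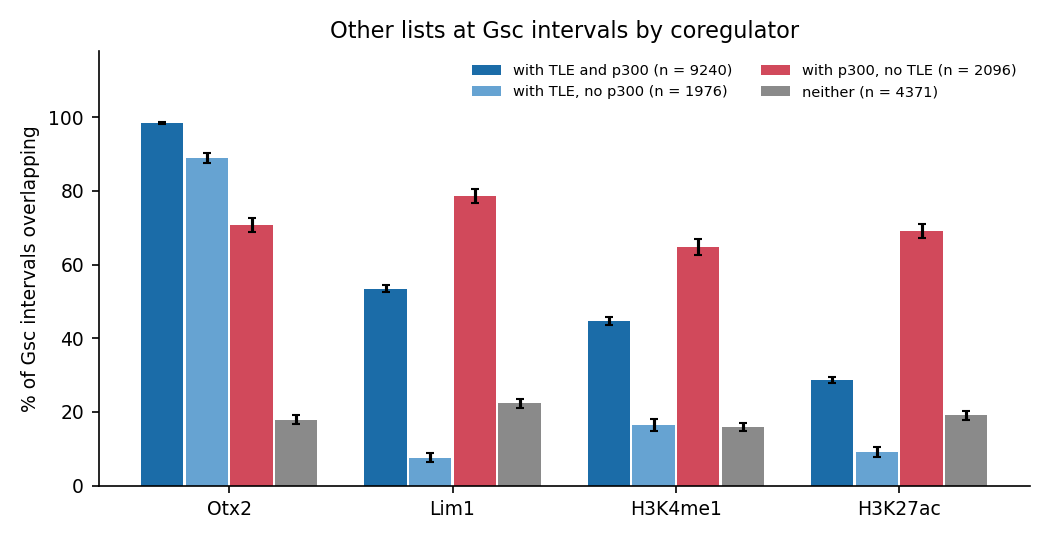
Share of Gsc intervals that overlap an Otx2, Lim1, H3K4me1 or H3K27ac interval, for Gsc intervals with TLE and p300, TLE alone, p300 alone or neither; bars start at 0 and whiskers are exact 95% binomial limits. H3K27ac stands at 69.1% with p300 alone and 9.06% with TLE alone, while Otx2 exceeds 70% in every group but the last.

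Gsc summits were about as close to p300 as to TLE. Within 100 bp of a p300 summit lay 59.7% (59.0 to 60.4) of Gsc summits, beside 59.96% for TLE, and within 25 bp 32.7% (32.0 to 33.4) beside 35.4% (34.7 to 36.1). The p300 list held more summits on the chromosomes, 179988, and TLE and p300 share an input library. After long shifts of the p300 list the share within 100 bp was 2.77%, a ratio of 21.6, beside a ratio of 23.8 for TLE. Within 25 bp the shifted p300 share was 0.737%, a ratio of 44.4, beside 53.9 for TLE. Where both lay within 100 bp of a Gsc summit, the TLE summit was the nearer one at 4575 and the p300 summit at 3964 of 8804 Gsc summits, with medians of 20 and 22 bp. Leaving out the 265 ties, TLE was nearer in 53.6% (52.5 to 54.6). A TLE summit without a p300 summit in reach was found for 14.2% of Gsc summits and the opposite for 14.0%.

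Chromosomes were similar except for the smallest in the list. The share of Gsc summits within 100 bp of TLE ran from 58.1% on chromosome 9 to 63.7% (61.6 to 65.8) on chromosome 8, with chromosome 10 below them at 53.9% (50.8 to 56.9). Chromosome 10 also had the most Gsc intervals per 100 TLE intervals, 18.6 against 11.4 to 15.3 elsewhere, and the highest share of TLE intervals with Gsc, 9.84% against 6.51 to 8.74%. The median distance between summits in shared Gsc intervals was 19 to 22 bp on every chromosome.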

How the data were processed

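Per the submitters' processing notes, MACS2 and deepTools were used, with no versions. Not given in the sources used here are aligner, read filters and build. The authors deposited 1 peak list per antibody, and no pooling is stated. Each line of the deposited lists gives a fold enrichment (a ratio to local background), a −log10 p, a −log10 q and a score, which is 10 times the −log10 q without decimals (largest difference 1). The narrow lists of Gsc, TLE and p300 also give where in the interval its summit lies. Lists without summits (Otx2, Lim1, H3K4me1, H3K27ac) served for overlap only.

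Lines with equal start and end were joined into 1 interval, ranked by its highest fold. Distances run between summits of the same chromosome. Lists were shifted by 20 fixed steps of 1 to 20 Mb, or of 5 to 100 kb to either side, with the end of a chromosome joined to its start. No p-value was computed. Medians were compared with limits from order statistics. Limits of a difference combine the limits of both groups by the root of summed squares. Procedures were tested on simulated data. Python 3.11.15, numpy 2.4.6, scipy 1.17.1 and pandas 2.3.3 were used.

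The pair of lists and the measures were chosen with earlier results of these data known. The alternatives, 47 in number, and the rule for named sites were written down for this work: the 5 pairs within 100 bp whose lower fold percentile was highest, the strongest interval of each list without the other, and the shared interval with the most summits in each list. Intervals on scaffolds entered only an alternative.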

Additional observations from a re-analysis of the deposited data

How the results depend on the processing

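Comparisons by width in steps of 10 bp, and all those of the other libraries and of summit placement, were chosen after seeing the data. No paired analysis was possible because Gsc and TLE have 1 library each. Values below keep the order: Gsc summits within 100 bp of TLE, TLE summits within 100 bp of Gsc, the ratio to shifted lists, Gsc intervals shared, the differences in intervals with several summits (Gsc, TLE) and in median width (Gsc, TLE). The reported values were 59.96%, 6.96%, 23.8, 63.4%, 7.73 and 21.7 percentage points, and 26 and 156 bp. With a −log10 q of at least 10 in both lists they were 68.6%, 1.575%, 55.6, 74.3%, 4.87, 22.2, 7 bp and 146 bp. With the TLE list shortened they were 22.7%, 17.8%, 63.4, 24.75%, −1.38, 10.3, 15 bp and 40 bp. With unplaced scaffolds they were 56.8%, 8.84%, 7.32, 59.25%, 12.0, 18.85, 29 bp and 129 bp; there the long shifts wrap around short scaffolds, which by construction raises the shifted share. With 1 summit per interval, the strongest, the first 3 were 51.2%, 6.53% and 23.2. Local shifts gave a ratio of 18.9. An overlap of at least 50% of the shorter interval gave 62.5% of Gsc intervals shared. With intervals called shared by summits within 100 bp, the TLE width difference was 152 bp. Within 10 width classes the differences in intervals with several summits were 2.32 and −4.60, and within 10 bp of width 0.691 and −7.24. In the lists with the q limit and with the TLE list shortened, the TLE difference within 10 bp of width was −4.24 and −2.13.

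Leaving out each chromosome in turn gave 59.5 to 60.3%, 6.87 to 7.08%, 23.6 to 24.1, 62.8 to 63.7%, 7.39 to 8.05, 21.4 to 21.9, 26 to 27 bp and 155 to 158 bp. Of the other 41 values 3 turned: 1 of 7 for the Gsc difference in intervals with several summits, and 2 of 7 for the TLE one. The shares cannot turn by construction, and all 4 other values of each lay outside the limits of the reported one. The Lim1 difference between Gsc intervals with and without TLE turned to −22.0 with the q limit in both lists, −9.27 with it in the Gsc list, −14.0 with the TLE list shortened and −11.0 within width classes. That of H3K4me1 turned to −25.9, −4.895, −7.02 and −5.60. Limits of the value with the q limit in the Gsc list ran from −13.6 to 3.825, so its direction is not settled. The values within width classes have no limits. The differences of Otx2, p300 and H3K27ac kept their sign in 6 of 6 other settings each, at 5.04 to 60.8, 0.182 to 49.1 and −41.8 to −4.35. The p300 value of 0.182, with the q limit in both lists, had limits from −2.59 to 2.955, so its direction is not settled. The split by Otx2 was not among these settings. There the H3K27ac order turned among Gsc intervals without Otx2, at 30.3% with TLE and 20.6% without. The cause of these changes was not tested. Depth is unknown, so a partner under the authors' threshold and no partner cannot be told apart.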

Other observations

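Outside the chromosomes the sharing was less frequent and the intervals held more summits. Of 8647 Gsc intervals on scaffolds and the mitochondrial sequence, 50.7% (49.6 to 51.8) overlapped a TLE interval, and 15.1% had several summits, beside 63.4% and 6.5% on the chromosomes. The mitochondrial sequence carried 16 Gsc, 28 TLE and 26 p300 summits.

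The summits of 1 interval were rarely listed closer than 50 bp. This was the case for 3 neighbouring pairs of Gsc summits and 7 of TLE, with smallest spacings of 43 and 29 bp.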
